A study of Mus musculus with 21 samples.

Results

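1C11NE cells that received medium from acrylamide-exposed microglia were compared with 1C11NE cells that received acrylamide in medium from unexposed microglia. In the ACR-CM group, BV2 microglia had been given acrylamide and their conditioned medium was then placed on the 1C11NE cells. In the PBS-CM+ACR group, BV2 cells had been given the vehicle, phosphate-buffered saline (PBS), and acrylamide was added to their medium when it went on the 1C11NE cells. The comparison therefore sets acrylamide that met the microglia before conditioning against acrylamide that was added after it. It used 6 of the 21 libraries, 3 per group, and all 12550 of 24263 genes that passed a filter on low counts. The comparison was chosen by its labels, and no measured value entered the choice of libraries.

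Acrylamide was dosed at 1 mM, and each exposure lasted 24 h. Both groups held 1C11 cells of strain 129 that had been differentiated for 12 days with a cyclic AMP analogue toward a noradrenergic fate, and both were kept in BV2-conditioned medium. The other 1C11NE groups were PBS (vehicle), ACR (acrylamide with no conditioned medium) and PBS-CM (medium of vehicle-treated BV2 cells with no acrylamide), each with 3 libraries. These 9 libraries entered the fit to help estimate the spread, and PBS-CM served as a reference level given side by side. The labels do not say whether acrylamide was still present in the ACR-CM medium, nor how much of it the microglia had consumed. The labels do not say that replicates were separate cultures, so the p-values measure the spread between these libraries, which may be technical. 1C11 is a clonal mouse stem cell line and BV2 is an immortalised mouse microglial line, so each cell type is represented by 1 line.

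Acrylamide is a small electrophile that reacts with thiol groups of glutathione and of cysteines in proteins. The sensor protein KEAP1 carries such cysteines, and its modification releases the transcription factor NRF2, which turns on genes for glutathione synthesis, thioredoxin recycling, NADPH supply and drug conjugation. Microglia-conditioned medium carries cytokines, growth factors and matrix proteins, among them members of the TGF-beta family. TGF-beta receptors signal through SMAD proteins, which switch on matrix genes and also feedback inhibitors such as Pmepa1.

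The labelled cell identity was checked against its markers on a depth-scaled unit (CPM, counts scaled to library size) shared by the 21 libraries. Of 20 microglial markers 19 were in the table, and their summed level was 29.4 to 34.65 CPM in PBS-CM+ACR and 28.7 to 41.05 CPM in ACR-CM, against 7237 to 8655 CPM in the BV2 libraries. The defining microglial markers Aif1 and Ptprc were at 0 in all 6 libraries, Itgam and Tyrobp reached at most 0.388 and 0.634 CPM, and Csf1r lay between 3.08 and 8.97 CPM. None of the 5 microglial markers that passed the filter was called different between the groups. Of 11 noradrenergic markers 6 were in the table, and they summed to 0.866 to 1.64 CPM in PBS-CM+ACR and 0.831 to 2.04 CPM in ACR-CM. None of them passed the filter, and the tyrosine hydroxylase and dopamine beta-hydroxylase genes were not analysed here. General neuronal markers summed to 11.25 to 15.2 CPM, carried mostly by Map2 and Tubb3, with the neurofilament gene Nefl at 0 in all 6 libraries. Broader lists were summed over the members that passed the filter, on CPM scaled within the 15 1C11NE libraries. Of 18 noradrenergic identity genes 4 passed (Gata3, Maoa, Cyb561 and Gch1), and these summed to 69.4 to 90.3 CPM. Of 30 neuronal cytoskeleton and synapse genes 10 passed, and these summed to 523 to 722 CPM. On the unit shared by the 21 libraries, mesenchymal or mural markers summed to 368 to 444.5 CPM in the 6 libraries. The widely expressed intermediate filament gene Vim gave 231 to 386 CPM of that. In the BV2 libraries the mesenchymal or mural markers summed to 527 to 869 CPM. The defining noradrenergic markers were thus near 0, and the cells are called 1C11NE throughout.

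Depth differed between the groups. The PBS-CM+ACR libraries held 2762287, 4334374 and 3347569 counts and the ACR-CM libraries 5221428, 4362112 and 5389128 counts, so every ACR-CM library was deeper. The share of counts on ribosomal RNA rows was 3.31% to 4.59% in PBS-CM+ACR and 2.77% to 2.85% in ACR-CM, again without overlap. PBS-CM+ACR replicate 3 stood apart from the other 5 libraries in its correlations. Its Pearson correlation across genes with its 2 group mates was 0.9405 and 0.949, against 0.975 between those mates. With the ACR-CM libraries its correlation was 0.9371 to 0.963, highest with ACR-CM replicate 2. Ribosomal protein genes took 7.88% of its counts against 10.6% and 10.9% in its mates. Their share in ACR-CM was 8.18% to 11.8%, lowest in ACR-CM replicate 2. The part these differences play in the results below was not tested. Several values below moved when replicate 3 was left out, and values without it are given beside many of them. The reference group also held a library away from its mates. PBS-CM replicate 1 lay at -27.22 on principal component 1, against 24.56 and 36.4. Ribosomal protein genes took 7.07% of its counts, against 11.99% and 13.62% in its mates. Comparisons of ACR-CM and PBS-CM+ACR with PBS-CM below include this library, and their values without it are not given. No library repeated another: the chi-square statistic per degree of freedom between replicates of a group ran from 4.04 to 34.1.

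**Figure D1:**
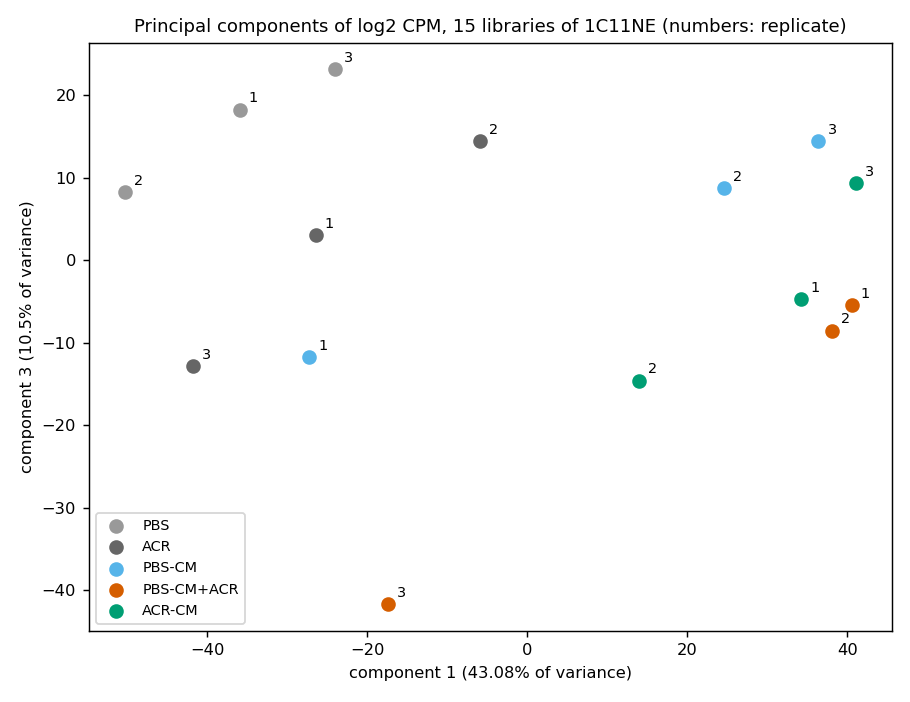
Each point is a 1C11NE library placed on principal components 1 and 3 of its log2 CPM values, coloured by group and numbered by replicate. PBS-CM+ACR replicate 3 lies at -41.65 on component 3, away from the other PBS-CM+ACR and ACR-CM libraries.

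Few genes differed between the groups by the test used. Only 2 of 12550 genes were called by edgeR's quasi-likelihood test at a Benjamini-Hochberg adjusted p below 0.05, and both were lower in ACR-CM, Pmepa1 among them. That is 0.0159% of the genes tested, and 0 genes (0%) were called higher in ACR-CM. At an unadjusted p below 0.05 there were 688 genes (5.48%), of which 366 (2.92%) were higher and 322 (2.57%) lower in ACR-CM. Without PBS-CM+ACR replicate 3 there were 508 of 12776, of which 242 (1.89%) were higher and 266 (2.08%) lower, and leaving out each of the 6 libraries in turn gave 508 to 946. Set against PBS-CM in the same fit, 56 genes (0.446%) were called higher and 60 (0.478%) lower in ACR-CM, while 22 (0.175%) were called higher and 25 (0.199%) lower in PBS-CM+ACR. These last comparisons share the PBS-CM libraries, the outlying replicate 1 included, and whether their counts differ was not tested.

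For most genes the fit of 15 libraries kept the difference within 1 log2 unit either way, as far as the spread between these libraries measures it. The 95% interval of the log2 difference lay within 1 log2 unit either way for 8901 genes (70.9%), and for 5851 (87.7%) of the 6673 genes whose mean over the 15 libraries reached 20 CPM. The median width of that interval to each side was 0.54 log2. The median log2 difference over all tested genes was -0.01. DESeq2 on the same 15 libraries called 11 genes, 6 lower and 5 higher in ACR-CM, and a fit of the 6 compared libraries alone called none, with 450 genes at an unadjusted p below 0.05.

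Pmepa1 encodes a membrane protein that TGF-beta induces and that restrains SMAD signalling. Its counts were 47, 67 and 76 in the PBS-CM+ACR libraries and 12, 11 and 25 in the ACR-CM libraries. Scaled to depth, these were 16.0, 15.3 and 23.6 CPM against 2.199, 2.41 and 4.65 CPM. Every ACR-CM library lay below every PBS-CM+ACR library. Pmepa1 was 5.85-fold lower in ACR-CM (log2 difference -2.55 ± 0.29 SE, 95% interval -3.16 to -1.93, adjusted p = 0.00144). In these bulk RNA samples, fewer cells that make a transcript and less transcript per cell cannot be told apart.

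The other 3 groups place that difference. Pmepa1 averaged 5.07 ± 0.93 CPM in PBS, 3.79 ± 0.71 CPM in ACR and 4.68 ± 0.24 CPM in PBS-CM (SD, n = 3 each), beside 18.3 ± 4.62 CPM in PBS-CM+ACR and 3.09 ± 1.36 CPM in ACR-CM. PBS-CM+ACR was the group with the high level, and the other 4 groups lay close together. Against PBS-CM, Pmepa1 rose in PBS-CM+ACR by 1.96 ± 0.28 on the log2 scale (adjusted p = 0.00452), while ACR-CM gave -0.59 ± 0.32 (adjusted p = 0.449). No BV2 library held a count of Pmepa1. Its level in the higher group is under the 20 CPM set for naming genes, and it is named because it was called.

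**Figure D2:**
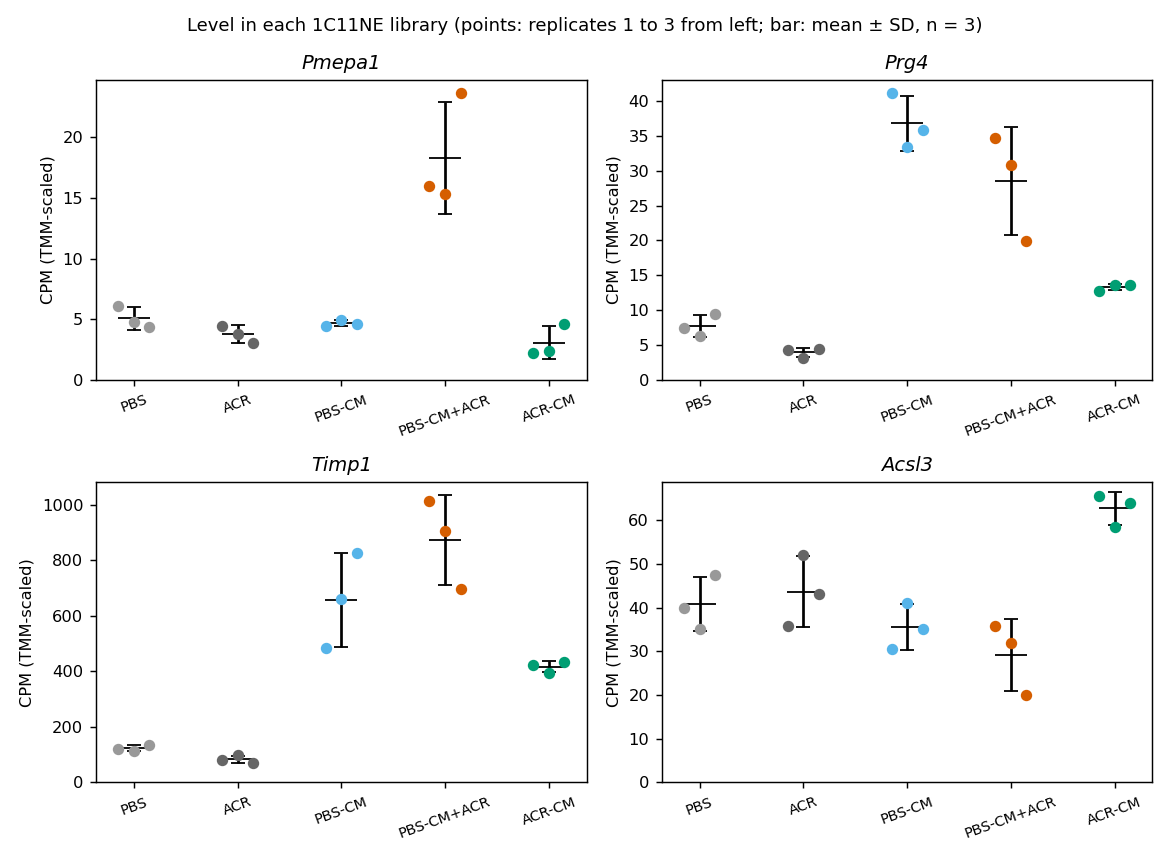
Points are TMM-scaled CPM of Pmepa1, Prg4, Timp1 and Acsl3 in each 1C11NE library (replicates 1 to 3 from left), with the mean and SD of each group of 3. Pmepa1 is high in PBS-CM+ACR alone among the groups, Prg4 and Timp1 are higher in the 3 conditioned-medium groups than in PBS and ACR, and Acsl3 is highest in ACR-CM.

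The Pmepa1 difference kept its direction in all 16 alternative settings, from -2.97 to -2.34 log2. Its call was lost in the fits of the 6 libraries alone, with an adjusted p of 0.143, or of 0.183 with replicate number added as a term.

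Beside Pmepa1, the genes named are 11 with lower and 12 with higher values in ACR-CM that had at least 20 CPM in the higher group and did not overlap between groups. None of these 23 was called. Over all tested genes, 490 (3.9%) were lower and 835 (6.65%) higher in ACR-CM without overlap between the libraries.

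Prg4 encodes lubricin, a lubricating proteoglycan. It measured 34.8, 30.9 and 19.9 CPM in PBS-CM+ACR and 12.8, 13.6 and 13.6 CPM in ACR-CM (log2 difference -1.10 ± 0.21, adjusted p = 0.171). Replicate 3 was the lowest of the PBS-CM+ACR libraries, and without it Prg4 was called, at -1.31 ± 0.19 and an adjusted p of 0.0184.

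Timp1 encodes a secreted inhibitor of matrix metalloproteases. It measured 1013, 906 and 696 CPM in PBS-CM+ACR and 423, 394 and 434 CPM in ACR-CM. Its log2 difference was -1.06 ± 0.23, with an adjusted p of 0.308. Without PBS-CM+ACR replicate 3 the difference was -1.22 ± 0.22 (adjusted p = 0.129), and it was called when PBS-CM replicate 1, which also lay away from its group, was left out as well (-1.22 ± 0.18, adjusted p = 0.0053). The Timp1 promoter window of RefSeq (assembly GRCm38.p6, 250 bases before to 50 after the gene start) holds the AP-1-type element TGAGTAA, found on either strand in 2.68% of 32851 promoters. It is shown because Timp1 is a textbook AP-1 target, with the element in capitals, at chrX:20870182-20870208 on the plus strand.
Timp1: ggtgggtggaTGAGTAAtgcgtccagg

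The remaining genes with lower values in ACR-CM were not called either. Col1a1, the alpha-1 chain of collagen I, had 73.3 ± 18.8 CPM in PBS-CM+ACR and 38.1 ± 8.75 CPM in ACR-CM (adjusted p = 0.631). Bgn, the small proteoglycan biglycan, had 26.1 ± 2.77 against 14.4 ± 3.49 CPM (adjusted p = 0.345). Socs3, the feedback inhibitor of JAK and STAT signalling below receptors of the gp130 family, had 25.7 ± 2.37 against 16.2 ± 1.94 CPM (adjusted p = 0.631). Against PBS-CM, Socs3 fell in ACR-CM by 1.05 on the log2 scale (adjusted p = 0.00945) and gave -0.39 in PBS-CM+ACR (adjusted p = 0.567). Klhdc8a, at 41.0 ± 15.4 against 14.1 ± 4.41 CPM, had the lowest log2 difference of these 11 (-1.54 ± 0.30, adjusted p = 0.173). Raet1c, a ligand of the NKG2D receptor of natural killer cells, Col7a1, the anchoring-fibril collagen, Ddah2, Kctd13 and Nt5dc2 had log2 differences of -1.06 to -0.61. The lowest was that of Col7a1, which was -0.66 without PBS-CM+ACR replicate 3.

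Acsl3, which activates long-chain fatty acids and acts in lipid droplet formation, measured 35.8, 31.8 and 19.9 CPM in PBS-CM+ACR and 65.6, 58.5 and 63.9 CPM in ACR-CM. Its log2 difference was 1.10 ± 0.21 (adjusted p = 0.171). Replicate 3 was the lowest library, and without it the difference was 0.88 ± 0.19. Lipn, a lipase family gene, measured 92.0, 86.2 and 61.3 CPM against 171, 145 and 177 CPM (log2 difference 1.04 ± 0.22, adjusted p = 0.308). Against PBS-CM, Lipn rose in ACR-CM by 1.59 on the log2 scale (adjusted p = 0.00149), and in PBS-CM+ACR it gave 0.55 (adjusted p = 0.466).

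Cyp51, the lanosterol 14-alpha-demethylase of cholesterol synthesis, had 21.5 ± 2.22 CPM in PBS-CM+ACR and 36.3 ± 3.85 CPM in ACR-CM (log2 difference 0.75 ± 0.18, adjusted p = 0.421). Scd1, which puts a double bond into saturated fatty acids, had 29.5 ± 3.58 against 47.2 ± 7.60 CPM (0.68 ± 0.17, adjusted p = 0.482). Idh1, a cytosolic source of NADPH, had 13.4 ± 2.29 against 22.6 ± 1.26 CPM (0.74 ± 0.19, adjusted p = 0.441). None of these passed the test. Mettl7a1 was close to constant within PBS-CM+ACR, at 39.9, 39.3 and 39.2 CPM, and measured 69.5, 59.2 and 65.8 CPM in ACR-CM (0.72 ± 0.15, adjusted p = 0.308). The flavin monooxygenase Fmo1, the tRNA methyltransferase subunit Trmt6, the ribosome biogenesis factor Bms1, the mitotic kinesin Kif20a, the ligand of the 4-1BB receptor Tnfsf9 and the MAP kinase phosphatase Dusp1 had log2 differences of 0.65 to 0.87, with adjusted p of 0.364 to 0.482. DESeq2 called Acsl3, Kif20a, Lipn, Mettl7a1 and Sema3c higher, and Prg4, Timp1, Klhdc8a and Nfatc2 lower in ACR-CM, beside Pmepa1. Sema3c and Nfatc2 fall outside the naming rule and are given because DESeq2 called them.

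**Figure D3:**
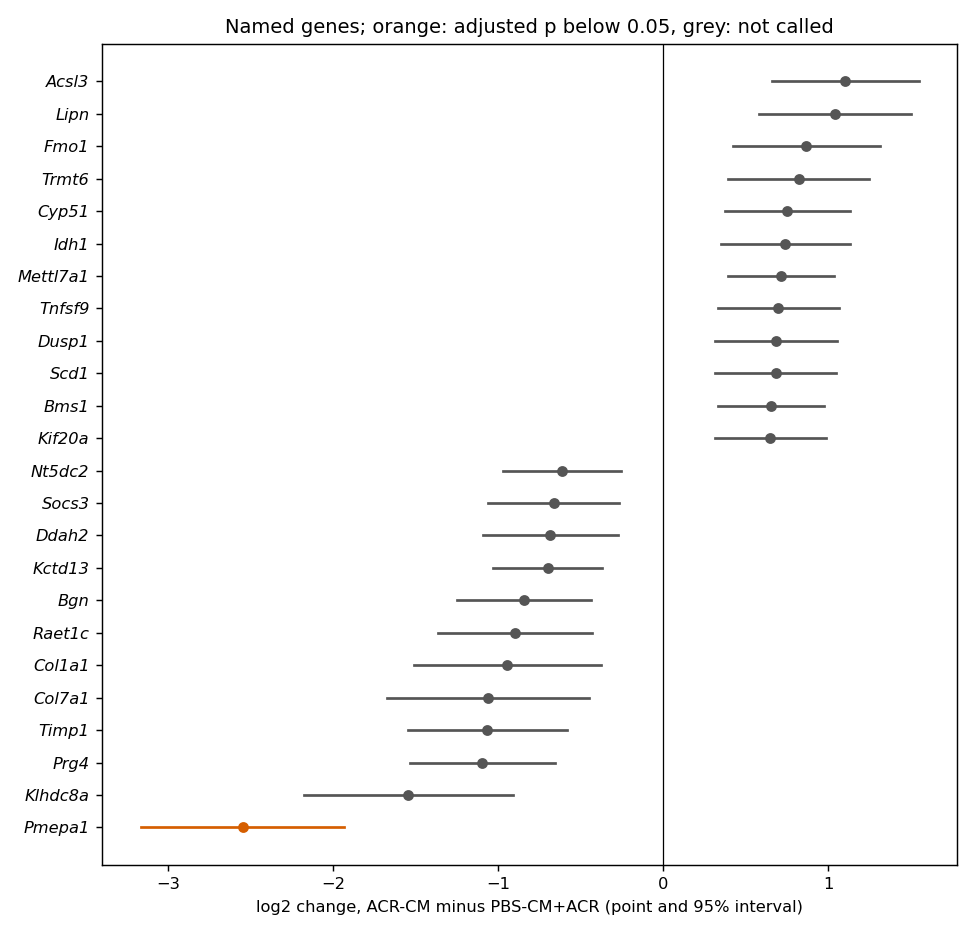
Points are log2 differences (ACR-CM minus PBS-CM+ACR) of Pmepa1 and the 23 other named genes, with 95% intervals from the fit of 15 libraries. Orange marks Pmepa1, which passed the adjusted test, and grey marks the 23 genes that did not.

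Genes of the NRF2 response, the best-known answer of cells to electrophiles, gave no call between ACR-CM and PBS-CM+ACR. Of 49 listed genes 46 were tested. Without overlap between the libraries 13 were higher and 1 was lower in ACR-CM, beside 6.65% and 3.9% of all tested genes. Their median log2 difference was 0.18, beside -0.01 over all tested genes, with 37 members above and 9 below 0. At an unadjusted p below 0.05, 10 were higher and 0 lower in ACR-CM, beside 2.92% and 2.57% of all tested genes. Without PBS-CM+ACR replicate 3 the median was 0.08, with 29 members above and 17 below 0. In that fit 7 were higher at that threshold, beside 1.89% of all genes. Leaving out any other of the 6 libraries gave medians up to 0.22.

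Each medium raised part of the list against PBS-CM, with the same 3 PBS-CM libraries, the outlying replicate 1 included, in both comparisons. There 22 of the 46 genes were called higher in ACR-CM and 15 in PBS-CM+ACR, beside 0.446% and 0.175% of all tested genes. Called lower were 0 in either, beside 0.478% and 0.199% of all tested genes. The list medians were 1.10 and 0.89 log2. Srxn1, Nqo1 and Gclm, given next, were not the members of highest mean CPM. The Srxn1 difference between the media lies below the list median of 0.18. Srxn1, the sulfiredoxin that repairs overoxidised peroxiredoxins, measured 143.5, 169 and 141 CPM in PBS-CM+ACR and 142, 150 and 162 CPM in ACR-CM, against 46.1, 45.4 and 61.5 CPM in PBS-CM. The libraries of the 2 acrylamide groups overlapped fully and lay above PBS-CM, and the log2 difference between them was 0.0002 ± 0.18 (95% interval -0.37 to 0.37), or -0.06 without PBS-CM+ACR replicate 3.

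Nqo1, the quinone reductase that serves as a standard NRF2 readout, measured 97.8, 105 and 57.3 CPM in PBS-CM+ACR and 102, 111 and 115 CPM in ACR-CM, against 16.4, 21.8 and 30.5 CPM in PBS-CM. Replicate 3 of PBS-CM+ACR was the low library. The log2 difference was 0.33 ± 0.23 (adjusted p = 0.93), and 0.09 ± 0.20 without that library. Gclm, the modifier subunit of glutamate-cysteine ligase in glutathione synthesis, measured 72.9, 96.5 and 73.7 CPM against 91.6, 91.6 and 89.8 CPM, and its difference was 0.16 ± 0.16 (adjusted p = 0.936), or 0.09 without replicate 3 of PBS-CM+ACR. Txnrd1, cytosolic thioredoxin reductase, differed by 0.14 ± 0.15 (adjusted p = 0.938), or 0.07 without that replicate.

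The ferritin light chain gene Ftl1 and heavy chain gene Fth1, which store iron, differed by 0.12 ± 0.21 and -0.02 ± 0.20. The conjugating enzyme gene Gstp1 differed by 0.21 ± 0.23, and the thiol peroxidase gene Prdx1 by 0.17 ± 0.25. These 4 had among the highest mean CPM of the list, and none was called. Ftl1, Gstp1 and Prdx1 differed by 0.01, 0.08 and -0.03 without PBS-CM+ACR replicate 3.

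The pentose phosphate enzyme gene Pgd measured 284, 304 and 330 CPM in PBS-CM+ACR and 401, 482 and 389 CPM in ACR-CM. Its libraries did not overlap, but its log2 difference of 0.47 ± 0.18 was not called (adjusted p = 0.895). The other members with an unadjusted p below 0.05 were Idh1, Cbr3, Ugdh, Gss and the glutathione transferases Gsta2, Gsta4, Gstm1, Mgst1 and Mgst3, all higher in ACR-CM. Gsta2 had the largest difference in the list, 2.61 ± 0.85, at 1.26 against 0.19 CPM (adjusted p = 0.728).

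The NRF2 partner complex binds the antioxidant response element, whose core was searched as TGACNNNGC on both strands of the RefSeq promoter windows. It occurred in 14 of 52 windows of the listed genes (26.9%, 39 of the 46 genes matched) and in 12.4% of all 32851 windows. Among listed genes called above PBS-CM in both media it occurred in 5 of 17 windows, from 13 matched genes. These 5 stretches are shown because they belong to genes that both media raised to levels the test did not separate. Capitals mark the core, read on the gene's own strand, and a core on the opposite strand appears as its reverse complement. The stretches lie in assembly GRCm38.p6 at chrX:74428909-74428957 (minus strand, G6pdx), chr3:122245403-122245451 (plus, Gclm), chr4:149166061-149166089 (minus, Pgd), chr2:152105542-152105570 (plus, Srxn1) and chr10:82859094-82859142 (plus, Txnrd1). A match describes letters in a window and not a bound site.
G6pdx: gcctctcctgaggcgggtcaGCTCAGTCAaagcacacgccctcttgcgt
Gclm: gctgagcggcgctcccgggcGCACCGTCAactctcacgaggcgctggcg
Pgd: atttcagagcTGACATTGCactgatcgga
Srxn1: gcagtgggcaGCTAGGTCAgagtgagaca
Txnrd1: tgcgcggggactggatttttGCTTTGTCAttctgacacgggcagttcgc

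**Figure D4:**
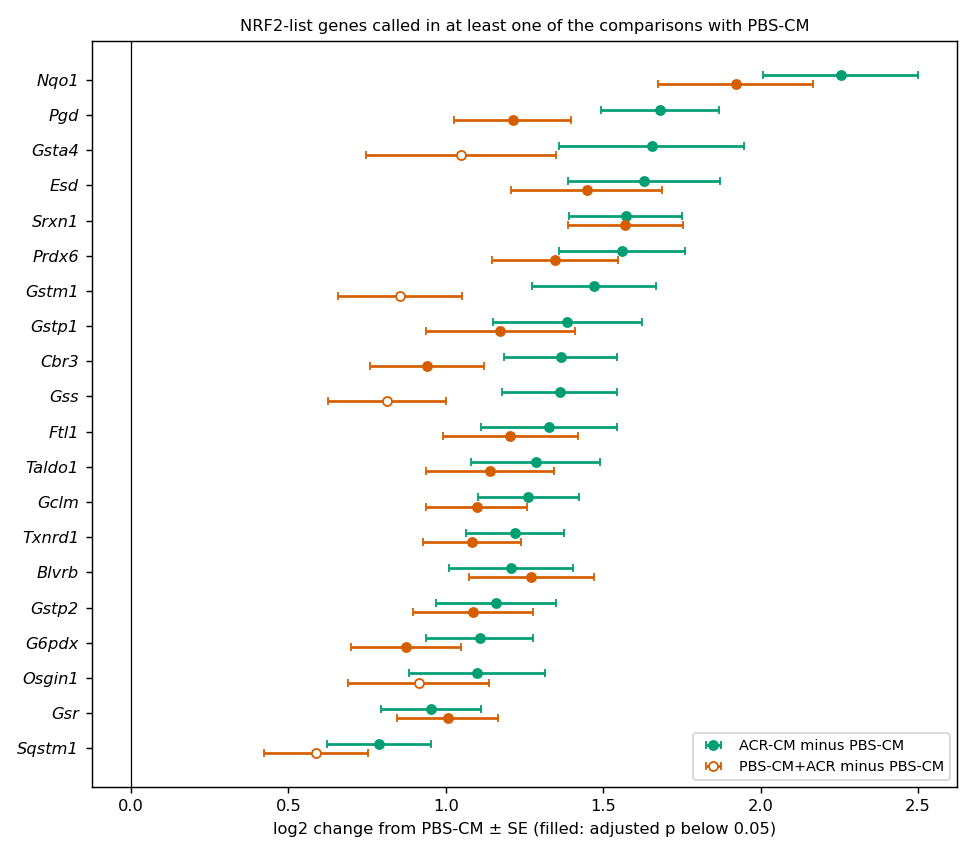
Points are log2 differences from PBS-CM with SE for ACR-CM (green) and PBS-CM+ACR (orange), for NRF2-list genes of at least 10 CPM that were called in at least 1 of those comparisons, and filled points were called. All points lie above 0, and for Srxn1 both lie at 1.57, while Pgd and Gstm1 lie further apart without being called between the media.

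Genes of fatty acid and cholesterol synthesis had higher values in ACR-CM as lists, with no member called. Of 15 fatty acid genes 14 were tested. Their median log2 difference was 0.34 beside -0.01 over all genes, and 11 were above 0. At an unadjusted p below 0.05, 5 were higher and 0 lower, beside 2.92% and 2.57% of all tested genes. Without PBS-CM+ACR replicate 3 the median was 0.38, with 12 of 14 above 0 and 6 higher at that threshold, beside 1.89% of all genes.

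Fasn, fatty acid synthase, measured 479, 505 and 825 CPM in PBS-CM+ACR and 1010, 1189 and 822 CPM in ACR-CM. Replicate 3 of PBS-CM+ACR lay within the ACR-CM range, and the log2 difference was 0.74 ± 0.29 (adjusted p = 0.895). Scd2, a brain-enriched desaturase, measured 569, 658 and 1204 CPM against 1233, 1596 and 955 CPM (0.64 ± 0.35, adjusted p = 0.909). It overlapped between groups in the same way. Without replicate 3 of PBS-CM+ACR the differences were 1.01 ± 0.30 for Fasn and 1.02 ± 0.37 for Scd2, neither called. Acsl3 and Scd1, described above, were named by a rule that required no overlap, so their lack of overlap is no separate result.

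All 24 cholesterol genes in the table, of 25 listed, were tested. Their median log2 difference was 0.28, and 20 were above 0. At an unadjusted p below 0.05, 6 were higher and 0 lower, beside 2.92% and 2.57% of all tested genes. Without PBS-CM+ACR replicate 3 the median was 0.20, 18 were above 0 and 7 were higher at that threshold, beside 1.89% of all genes. Without ACR-CM replicate 2 the median was 0.13. Against PBS-CM, 7 members were called higher in ACR-CM and 2 in PBS-CM+ACR, beside 0.446% and 0.175% of all tested genes. Both comparisons share the PBS-CM libraries, the outlying replicate 1 included. Stard4, a sterol carrier, measured 119, 113 and 108 CPM in PBS-CM+ACR and 151, 152 and 153 CPM in ACR-CM (0.43 ± 0.15, adjusted p = 0.771). Srebf2, the transcription factor that controls this pathway, overlapped between the groups (-0.03 ± 0.30, or 0.32 ± 0.29 without PBS-CM+ACR replicate 3).

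The sterol response element, which that factor binds, was searched as ATCACCNCA on both strands. It occurred in 2 of 20 promoter windows of the list (17 of 24 genes matched) and in 0.782% of all windows. The 2 stretches are shown because they are the matches found in the list. Their genes stand at the enzyme and the regulator end of the pathway, and whether their log2 differences differ was not tested. The stretches lie at chr5:4104758-4104806 (minus strand, Cyp51) and chr15:82147086-82147134 (plus, Srebf2), with the element in capitals.
Cyp51: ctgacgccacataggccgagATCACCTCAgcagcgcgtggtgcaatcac
Srebf2: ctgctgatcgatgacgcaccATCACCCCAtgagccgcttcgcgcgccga

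Among TGF-beta and activin target genes, Pmepa1 was the 1 member called, and it was lower in ACR-CM. Of 27 listed genes 23 were tested. Their median log2 difference was -0.25, and 17 were below 0. At an unadjusted p below 0.05, 6 were lower and 1 higher, beside 2.57% and 2.92% of all tested genes. Without PBS-CM+ACR replicate 3 the median was -0.11, 15 were below 0 and 4 were lower at that threshold, beside 2.08% of all genes. The median was -0.51 without ACR-CM replicate 2 and -0.48 without PBS-CM+ACR replicate 2. Smad7, the inhibitory SMAD, had 85.4 ± 49.0 CPM in PBS-CM+ACR and 53.8 ± 17.1 CPM in ACR-CM, and its spread within PBS-CM+ACR exceeded the difference (-0.67 log2, adjusted p = 0.918, and -0.11 without replicate 3). Tgfb3, a ligand, had 67.4 ± 51.3 against 56.7 ± 18.7 CPM (-0.25 log2, adjusted p = 0.951, and 0.57 without replicate 3). The receptor genes Tgfbr1 and Tgfbr2 differed by 0.13 ± 0.20 and 0.02 ± 0.20, or by 0.04 and 0.06 without it. Skil, a SMAD corepressor, measured 48.7, 43.7 and 72.2 CPM in PBS-CM+ACR and 31.0, 38.1 and 31.0 CPM in ACR-CM (-0.72 ± 0.26, adjusted p = 0.807), and -0.49 without replicate 3. Skil, like Tgfbr1 and Tgfbr2, was chosen after its values were seen.

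Extracellular matrix genes were mostly below 0, but not without PBS-CM+ACR replicate 3. Of 38 listed genes 30 were tested and none was called; 25 were below 0 and the median was -0.26. Without replicate 3, 12 were below 0, the median was 0.05 and Prg4 was called. At an unadjusted p below 0.05, 4 genes were still lower without replicate 3, as many as with it. The shares over all tested genes were 2.08% without replicate 3 and 2.57% with it. Without ACR-CM replicate 2 the median was -0.47. Col1a2, the partner chain of Col1a1, measured 558, 806 and 1441 CPM in PBS-CM+ACR, with replicate 3 the highest, and 853, 1138 and 694 CPM in ACR-CM (-0.06 ± 0.34, or 0.38 ± 0.34 without replicate 3). Mmp2, a gelatinase, had 1429 ± 387 against 1225 ± 262 CPM (-0.22 ± 0.27, or 0.003 ± 0.28 without it). Without replicate 3 the medians of proteasome subunit, nuclear-encoded respiratory chain, cytosolic ribosomal protein and mesenchymal marker genes also changed sign, as did those of astrocyte and oligodendrocyte markers, nuclear long noncoding RNAs and immediate early genes, the proteasome median from 0.12 to -0.04 and the ribosomal one from 0.03 to -0.11.

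No gene of the other lists was called. Each median below is followed by its range when each of the 6 libraries was left out in turn. The median of 22 cytosolic heat shock and co-chaperone genes was 0.18 (0.09, without PBS-CM+ACR replicate 1, to 0.20), and that of 22 endoplasmic reticulum chaperones was 0.14 (0.11 to 0.23, without PBS-CM+ACR replicate 2). ATF4 targets, which answer amino acid shortage and stress of the endoplasmic reticulum, had a median of 0.16 over 33 genes (0.10, without PBS-CM+ACR replicate 1, to 0.22). The 40 genes of DNA replication and mitosis had a median of 0.16 (0.07, without PBS-CM+ACR replicate 3, to 0.21). At an unadjusted p below 0.05, 8 were higher and 1 lower, beside 2.92% and 2.57% of all tested genes. Without PBS-CM+ACR replicate 3, 2 were higher, beside 1.89% of all genes. Replication-dependent histone genes, of which 32 of 49 passed the filter, had a median of 0.25 (0.05, without ACR-CM replicate 3, to 0.32), with 5 higher at an unadjusted p below 0.05. The histone median was 0.18 without PBS-CM+ACR replicate 3, with 1 higher.

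The medians of p53 targets, NF-kB targets and immediate early genes changed sign when 1 library was left out, while those of interferon-stimulated and neuronal genes stayed below 0. The 22 p53 targets had a median of 0.04 (-0.003, without ACR-CM replicate 1, to 0.11, without PBS-CM+ACR replicate 1) and none at that threshold. Among 20 NF-kB targets, cytokines and chemokines the median was 0.03, with 10 above and 10 below 0 (-0.08, without PBS-CM+ACR replicate 2, to 0.14, without ACR-CM replicate 1). For 25 interferon-stimulated genes it was -0.14 (-0.13 to -0.06, without PBS-CM+ACR replicate 3). The 25 immediate early genes had a median of -0.01 (-0.11, without PBS-CM+ACR replicate 1, to 0.17, without ACR-CM replicate 3). Neuronal cytoskeleton and synapse genes, of which 10 of 30 listed passed the filter, had a median of -0.11 (-0.30, without ACR-CM replicate 2, to -0.06, without PBS-CM+ACR replicate 3).

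**Figure D5:**
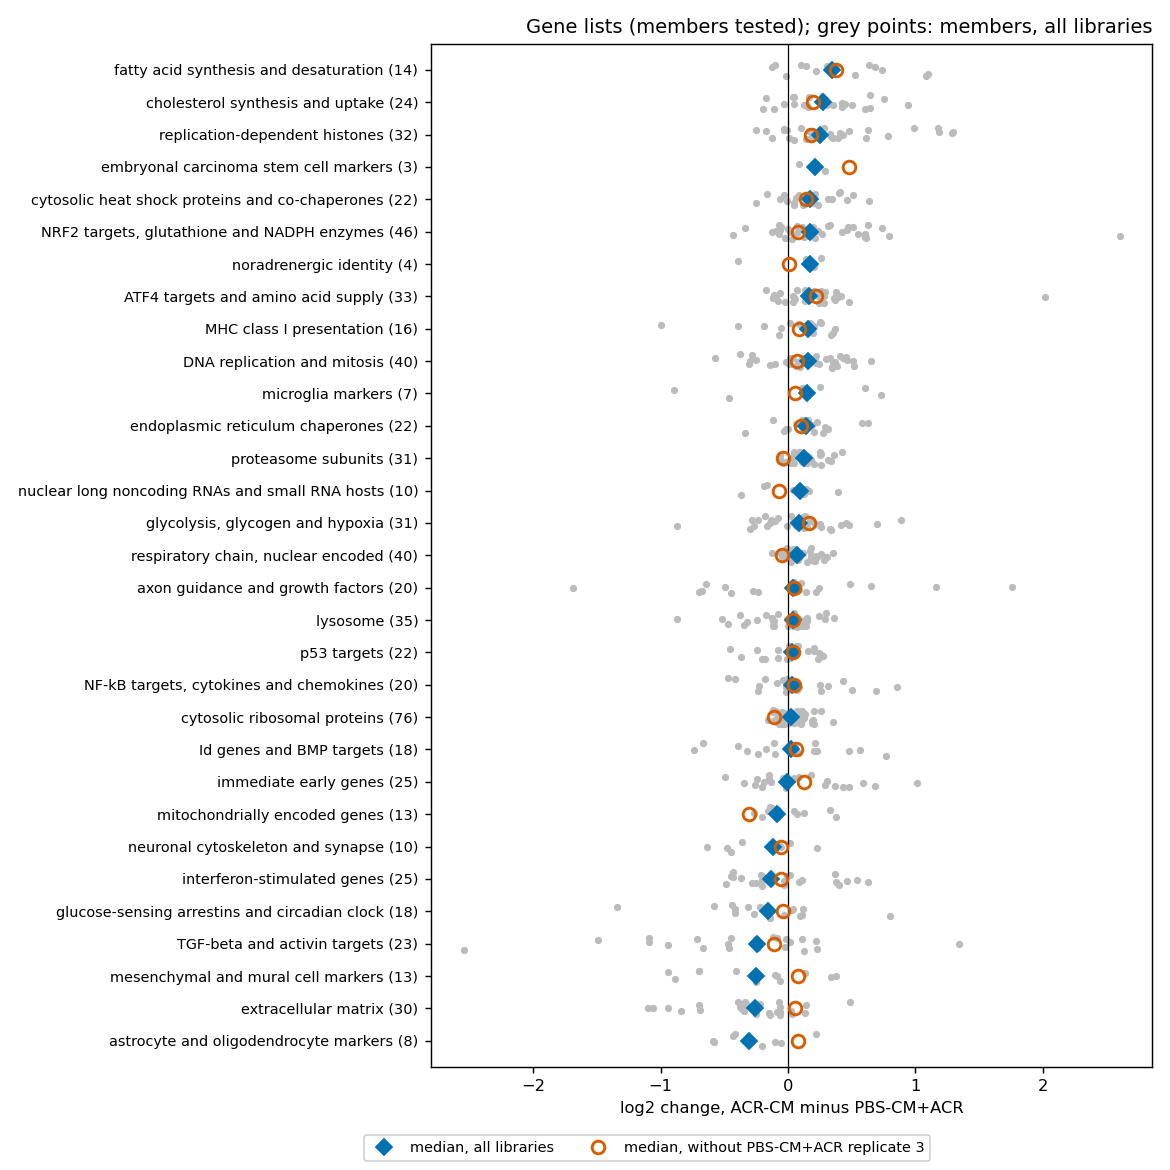
Each row is a gene list with its number of tested members: grey points are the members' log2 differences (ACR-CM minus PBS-CM+ACR), blue diamonds the list medians and orange rings the medians without PBS-CM+ACR replicate 3. The fatty acid and cholesterol lists keep medians above 0 in both, while the extracellular matrix median moves from -0.26 to 0.05.

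The difference between the media was also read over genes grouped by comparisons that share no library with it. Conditioned medium without acrylamide raised 313 genes over PBS. Of these, 57.5% were below 0 in ACR-CM minus PBS-CM+ACR, beside 50.8% of all tested genes. At an unadjusted p below 0.05, 26 were lower and 4 higher, beside 2.57% and 2.92% of all tested genes. For the 258 genes that PBS-CM lowered, 39.5% were below 0, and 3 were lower and 24 higher at that threshold. Genes that conditioned medium raised thus had somewhat lower values in ACR-CM than in PBS-CM+ACR, and genes it lowered had somewhat higher values, with medians of -0.04 and 0.09 log2.

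With PBS-CM+ACR replicate 3 left out and the groups drawn again from that fit, 73% of 545 raised genes and 26.8% of 503 lowered genes were below 0, beside 47.9% of all genes. Membership of these groups depends on PBS-CM, whose replicate 1 lay away from its mates. With it also left out, 66.4% of 2209 raised genes and 26.5% of 2270 lowered genes were below 0, beside 47.9% of all genes. The 58 genes that acrylamide alone raised (ACR against PBS) had a median of 0.17, with 20.7% below 0, and the 90 that it lowered had a median of -0.01, with 51.1% below 0. Without replicate 3 these figures were 0.08 with 34.7% of 95 genes, and 0.05 with 40.8% of 142 genes. Genes of a group are not independent of each other, so these shares describe the 6 libraries and carry no test.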

How the data were processed

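Poly(A) RNA was sequenced on an Ion S5 instrument, per the labels' protocols. The authors deposited raw read counts per gene, with gene symbols. Reads were aligned with Bowtie2 2.2.5, per the submitters' processing notes. For the genome build, annotation, counting tool and use of strand, the sources used here give nothing, so genes that overlap or share sequence with a near copy (Gstp1 and Gstp2, for example) may trade reads. Table columns were matched to samples by name.

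Counts of the 15 1C11NE libraries were filtered (filterByExpr by group), scaled by TMM and fitted with edgeR 4.0.16 (robust quasi-likelihood) in R 4.3.3. The contrast was ACR-CM minus PBS-CM+ACR, adjusted by Benjamini-Hochberg over 12550 genes and called below 0.05. SE is the log2 difference divided by the square root of F. CPM are TMM-scaled, and errors of CPM are SDs over 3 libraries. Alternatives used DESeq2 1.42.0, limma 3.58.1 and other settings.

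Named genes were the 12 per direction with no overlap between libraries and at least 20 CPM, called genes before others and then by unadjusted p. Predicted genes were passed over, and 1 called gene and 1 list member are not reported here. List examples were called members or those of highest mean CPM, unless stated. Srxn1, Nqo1 and Gclm were neither. The members and the 31 lists were chosen with earlier results of these data known. Promoter windows came from RefSeq (GRCm38.p6), and 15 of the genes that the naming rule gave matched.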

Additional observations from a re-analysis of the deposited data

How the results depend on the processing

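The 2 calls, both lower in ACR-CM, were also the result with RLE or upper-quartile scaling, a filter of 10 CPM, limma-voom and no robust prior, and the same 2 genes were called in each. Without the low-count filter 13 genes were called, 10 lower and 3 higher, and DESeq2 called 11, 6 lower and 5 higher, Pmepa1 among them each time. The 6 compared libraries alone gave 0 calls, lower ones included, with 450 genes at an unadjusted p below 0.05 and 11652 genes tested. Leaving out each of the 6 libraries in turn gave 2 to 3 calls, all lower (3 without PBS-CM+ACR replicate 3, with Prg4), and 0 higher. Without both libraries that stand apart (PBS-CM+ACR replicate 3 and the library of PBS-CM numbered 1) there were 4 calls, 4 lower, with Prg4 and Timp1. The cause of these moves was not tested. Correlations of deviations from the group means at the same replicate number were 0.0843, -0.26 and -0.342. Deviations within a group of 3 libraries depend on each other, so these values cannot tell whether replicate numbers pair the samples. With the replicate block the 15 libraries gave 2 calls and the 6 libraries 0, lower ones included, with 247 genes at an unadjusted p below 0.05. No named gene changed sign. Pmepa1 rests on 11 to 76 counts per library, and genes under 20 CPM have wider intervals.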
